A study of Homo sapiens with 4 samples.

Results

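MYC, MYCN, MYCL, MAX, MXD1, MXD3, MXD4, MXI1, MNT and MLX are the genes of the MYC and MAX network described here. They were chosen by name: every Ensembl identifier that maps to 1 of these 10 symbols was taken, and none was taken for its value. Of the 10 genes, 9 had a value in all 4 libraries and were at 1 CPM or more in the control library, among 24039 genes listed in all 4 tables, and MYCN was not analysed here. CPM is the number of reads of a gene scaled to 1 common library total.

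The cells were of UM-UC-3, an established cell line from a human bladder cancer, grown in DMEM with serum. They were transfected with 75 nM siRNA for 48 h, and the RNA of each of the 4 conditions gave 1 library: a control siRNA, si-hnRNPK, si-PTBP1 and one that carries the label si-lncRNA-LBCS. Total RNA was read as 100-base paired-end reads. hnRNPK and PTBP1 are RNA-binding proteins, and lncRNA-LBCS is a long non-coding RNA.

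Proteins of this network bind DNA in pairs, and MAX is the shared partner. MYC, MYCN and MYCL bind E-box sequences with MAX and raise transcription of genes for growth, ribosome synthesis and division. MXD1, MXD3, MXD4, MXI1 and MNT compete for MAX and for the same sequences, and recruit corepressors such as SIN3A with histone deacetylases. MLX resembles MAX and pairs with some MXD proteins, with MNT and with the glucose-sensing factors MLXIP (MondoA) and MLXIPL. The MYC mRNA is short-lived, and hnRNPK and PTBP1 are among the proteins reported to bind the MYC gene or its mRNA.

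With 1 library per condition, no difference had a replicate check and no p-value is given. Each interval of a change or ratio of a single gene is the 95% exact Clopper-Pearson interval for how its reads divided between 2 libraries. All intervals cover counting error only. Changes are differences in log2(CPM + 1), knockdown minus control, which understate the change of low genes. A gene is said to have risen or fallen where this difference was 1 or more, a 2-fold change, and other differences are given as values. Fewer cells of a type and less RNA per cell cannot be told apart in such bulk libraries, and the 3 comparisons share the same control library.

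The libraries held between 54301152 and 70232674 reads on listed genes. HNRNPK was at 783 CPM in the control and 188 CPM with si-hnRNPK, and PTBP1 was at 280.0 CPM in the control and 89.7 CPM in the si-PTBP1 library. The gene matched by the lncRNA-LBCS siRNAs, ENSG00000228412, was at 1.79 CPM in the control and 1.47 CPM in the si-lncRNA-LBCS-labelled library, with an interval of the change from -0.42 to 0.07, so its knockdown was not detectable at this depth. Every direction given below for that library rests on its label, as does its place among the 3 knockdown libraries. VIM, a mesenchymal marker, was at 2343 CPM in the control, and the epithelial keratins KRT18, KRT8 and KRT7 were at 121, 63.0 and 2.85 CPM. GATA3 and UPK2, markers of urothelium, and KRT19 were under 0.4 CPM in every library. The blood and endothelial markers CD14, VWF and CDH5 were at most 0.13 CPM in every library. The proliferation markers were lower in the si-hnRNPK library for 5 of 5 genes (median change -1.35), and the median change of 5 interferon-stimulated markers was 4.11 there. The part of both in the results for that library was not tested.

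MYC mRNA was lower in the si-lncRNA-LBCS-labelled library and in the si-PTBP1 library, and was not lower after knockdown of hnRNPK. MYC was at 210.3 CPM in the control, 225 CPM with si-hnRNPK, 166 CPM in the si-PTBP1 library and 141 CPM in the si-lncRNA-LBCS-labelled library. Each step in that order was larger than the counting error. The ratio to control was 0.67 (0.652 to 0.687) in the si-lncRNA-LBCS-labelled library, 0.789 (0.768 to 0.81) with si-PTBP1 and 1.07 (1.04 to 1.10) with si-hnRNPK. None of the 3 changes (-0.58, -0.34 and 0.10) reached 2-fold. Against all genes tested, the MYC change was lower than that of 94.0% of genes in the si-lncRNA-LBCS-labelled library and of 90.2% in the si-PTBP1 library, and higher than that of 65.9% in the si-hnRNPK library.

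The CPM scales of the libraries were not centred alike. Median-of-ratios scaling moved the median change of all genes from -0.11 to -0.00 for si-hnRNPK and from 0.12 to 0.01 for si-PTBP1, while for the si-lncRNA-LBCS-labelled library it was -0.01 on both scales. On the median-of-ratios scale the MYC changes were 0.21 for si-hnRNPK, -0.57 for the si-lncRNA-LBCS-labelled library and -0.47 for si-PTBP1, all with the same sign as before. PVT1, the long non-coding RNA gene next to MYC, had changes of 0.12, -0.26 and -0.16 in the same order.

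MYCL, the paralog first found in lung cancer, was near the lower limit of the libraries. It was at 1.74 CPM in the control, 1.95 CPM with si-hnRNPK, 1.14 CPM in the si-lncRNA-LBCS-labelled library and 1.03 CPM in the si-PTBP1 library, from 107, 106, 80 and 58 reads. The si-hnRNPK and control values did not differ beyond counting error, nor did those of the si-lncRNA-LBCS-labelled library and the si-PTBP1 library. Its changes of -0.36 (-0.61 to -0.11) and -0.43 (-0.69 to -0.16) in the latter pair had the sign of the MYC changes.

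MAX, the common partner, varied little. It was at 60.1 CPM in the control, 57.6 CPM in the si-PTBP1 library, 52.6 CPM in the si-lncRNA-LBCS-labelled library and 51.9 CPM with si-hnRNPK. The control and si-PTBP1 values did not differ beyond counting error, nor did the lower pair. The changes were -0.06 (-0.13 to 0.01), -0.19 (-0.25 to -0.12) and -0.21 (-0.28 to -0.14), and on the median-of-ratios scale -0.18, -0.18 and -0.10.

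**Figure D1:**
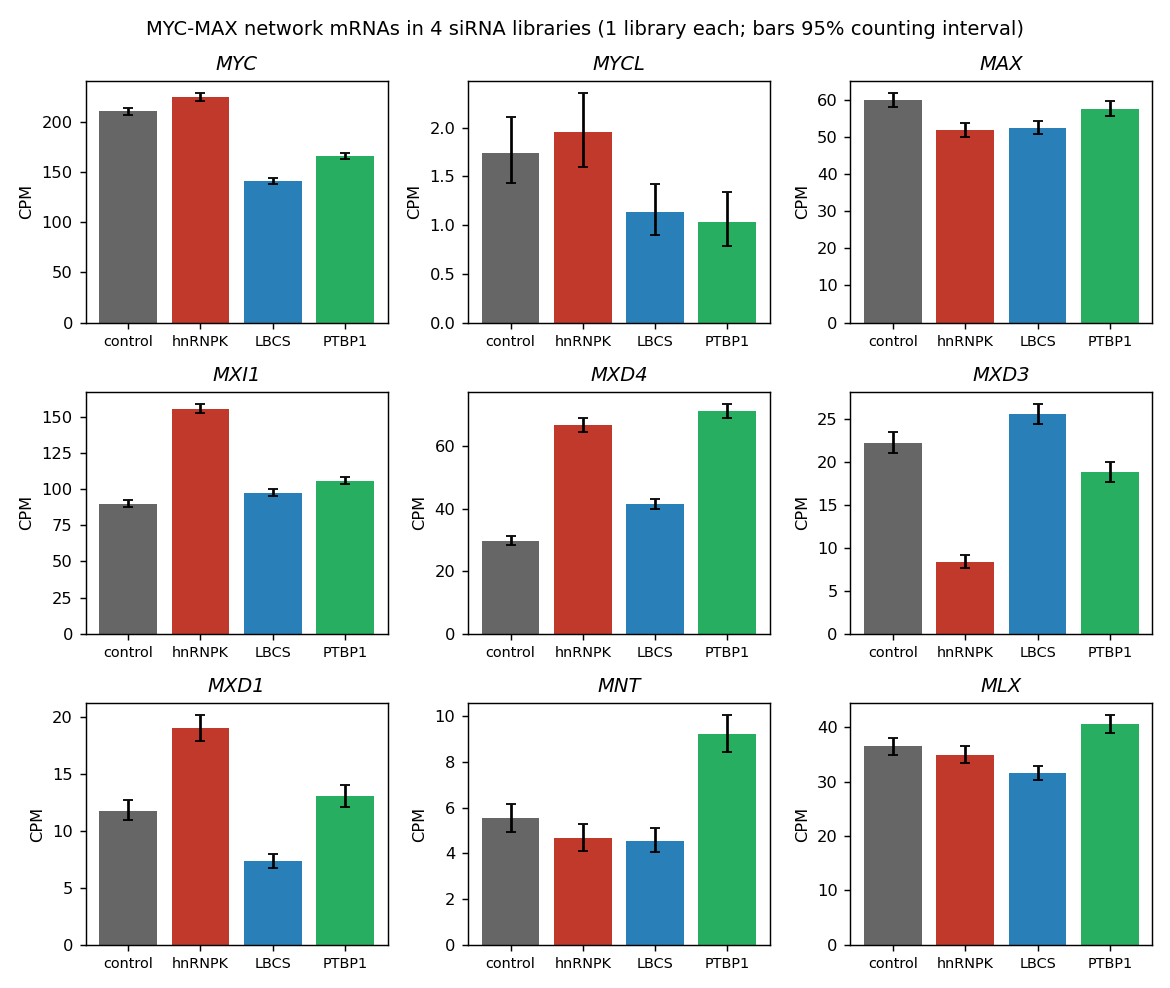
Level in CPM (vertical axis, from 0, a separate scale for each gene) of the 9 network genes in the 4 libraries. Bars are single libraries and error bars the 95% Poisson counting interval. MYC was lowest in the si-lncRNA-LBCS-labelled library (141 CPM), MXD3 was lowest with si-hnRNPK (8.42 CPM), and MXD4 was above the control in all 3 knockdown libraries.

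The largest change in the si-hnRNPK and si-PTBP1 libraries was that of a repressing partner, the kind that makes up most of the 9 members. In the si-lncRNA-LBCS-labelled library the largest was that of MXD1 (-0.62, -0.76 to -0.47). Its interval overlapped that of MYC (-0.58, -0.61 to -0.54). In the si-hnRNPK library 1 of 9 members rose (MXD4), against 3.55% of the 13672 genes tested, and 1 of 9 fell (MXD3), against 3.93% of all genes. At a threshold of 1.5-fold, 3 of 9 were higher (MXD1, MXD4 and MXI1; 9.89% of all genes) and 1 of 9 was lower (MXD3; 15.8% of all genes). In the si-PTBP1 library 1 of 9 rose (MXD4; 2.92% of 13855 genes) and 0 of 9 fell (0.613% of all genes). There, 2 of 9 were 1.5-fold higher (MXD4 and MNT; 12.1% of all genes) and 0 of 9 were 1.5-fold lower (3.12% of all genes). In the si-lncRNA-LBCS-labelled library, 0 of 9 rose and 0 of 9 fell by 2-fold, where 0.378% and 1.01% of 13492 genes did, while 0 of 9 were 1.5-fold higher (4.14% of all genes) and 1 of 9 was 1.5-fold lower (MXD1; 5.74% of all genes). A count of 0 or 1 among 9 members is too small to be set apart from such shares.

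MXD4 was the member with the highest rise, and it was above the control in all 3 knockdown libraries. It was at 29.7 CPM in the control, 41.5 CPM in the si-lncRNA-LBCS-labelled library, 66.7 CPM with si-hnRNPK and 71.4 CPM in the si-PTBP1 library, and each step exceeded the counting error. The ratios to control were 1.40 (1.32 to 1.48), 2.24 (2.12 to 2.37) and 2.40 (2.27 to 2.54). Its change was higher than that of 92.3%, 97.5% and 98.9% of the genes tested in the 3 comparisons. Because the knockdown libraries were all above the control, both 2-fold calls rest on the control library: with the geometric mean of the 3 remaining libraries as the reference the changes were 0.57 for si-hnRNPK and 0.70 for si-PTBP1, and -0.32 for the si-lncRNA-LBCS-labelled library.

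MXI1, also called MXD2, was the most abundant repressing partner. It was at 89.8 CPM in the control, 97.6 CPM in the si-lncRNA-LBCS-labelled library, 106 CPM in the si-PTBP1 library and 156 CPM with si-hnRNPK. The si-hnRNPK library stood apart from the other three, with a ratio to control of 1.73 (1.68 to 1.79) and a change of 0.79, higher than that of 94.1% of genes. The changes of the other libraries were 0.12 and 0.23, the latter 0.11 on the median-of-ratios scale.

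MXD1 (MAD1), which is known to be induced as cells differentiate, differed from the control in opposite directions between libraries. It was at 11.8 CPM in the control, 13.1 CPM in the si-PTBP1 library, 19 CPM with si-hnRNPK and 7.36 CPM in the si-lncRNA-LBCS-labelled library. The change was 0.65 (0.52 to 0.77) for si-hnRNPK and -0.62 (-0.76 to -0.47) for the si-lncRNA-LBCS-labelled library, and the si-PTBP1 and control values did not differ beyond counting error. It shares 237 exon bases with SNRNP27, which had changes of -0.81 and -0.36 in the 2 libraries where MXD1 differed.

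MXD3, the member of this family that is known to be expressed in S phase of dividing cells, was the only one of the 9 that fell by 2-fold in any comparison. It was at 22.3 CPM in the control, 25.6 CPM in the si-lncRNA-LBCS-labelled library, 18.8 CPM in the si-PTBP1 library and 8.42 CPM with si-hnRNPK. The si-hnRNPK value was low against all others, with a ratio to control of 0.378 (0.339 to 0.421) and a change of -1.30, lower than that of 98.8% of genes. MKI67, a marker of dividing cells, had a change of -2.65 in the same library. MXD3 shares 926 exon bases with RAB24 on the same strand and 1158 with PRELID1 on the opposite strand, and the sources used here do not say how reads on shared bases were assigned or whether strand was used. RAB24 and PRELID1 had changes of -0.11 and 0.22 in the si-hnRNPK library.

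MNT, the broadly expressed repressor of the network, was higher with si-PTBP1. It was at 9.22 CPM there, against 5.52 CPM in the control, 4.66 CPM with si-hnRNPK and 4.56 CPM in the si-lncRNA-LBCS-labelled library, and the last 2 values did not differ beyond counting error. The ratio of the si-PTBP1 library to control was 1.67 (1.45 to 1.92), a change of 0.65 that was 0.53 on the median-of-ratios scale and so under 1.5-fold there. Of its exon bases, 1065 overlap an antisense gene, AC006435.1, which was not separated from it here.

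MLX, the MAX-like protein, was at 36.5 CPM in the control, 35.0 CPM with si-hnRNPK, 31.6 CPM in the si-lncRNA-LBCS-labelled library and 40.6 CPM in the si-PTBP1 library. Control and knockdown values for si-hnRNPK did not differ beyond counting error, and the sign of that change turned from -0.06 to 0.05 with median-of-ratios scaling. MLX shares 770 exon bases with PSMC3IP on the opposite strand, which had a change of -1.02 with si-hnRNPK, or -0.94 with median-of-ratios scaling. MLXIP, the MondoA partner of MLX, had changes of -0.58 (si-hnRNPK), -0.43 (si-lncRNA-LBCS-labelled library) and 0.02 (si-PTBP1). ARRDC4, a known target of MondoA and MLX, was at 9.42 CPM in the control, rose to 23.6 CPM with si-hnRNPK (change 1.24), fell to 3.5 CPM in the si-lncRNA-LBCS-labelled library (change -1.21) and was at 13.1 CPM with si-PTBP1. The order of ARRDC4 over the 4 libraries was that of MXD1, a match noticed after the values were seen, and not that of MLX or MLXIP. Of the 4 genes of the wider network tested, MLXIP, MGA, USF1 and USF2, 4 were lower with si-hnRNPK (median -0.31), 4 in the si-lncRNA-LBCS-labelled library (median -0.33) and 1 with si-PTBP1 (median 0.05), and none passed 2-fold.

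**Figure D2:**
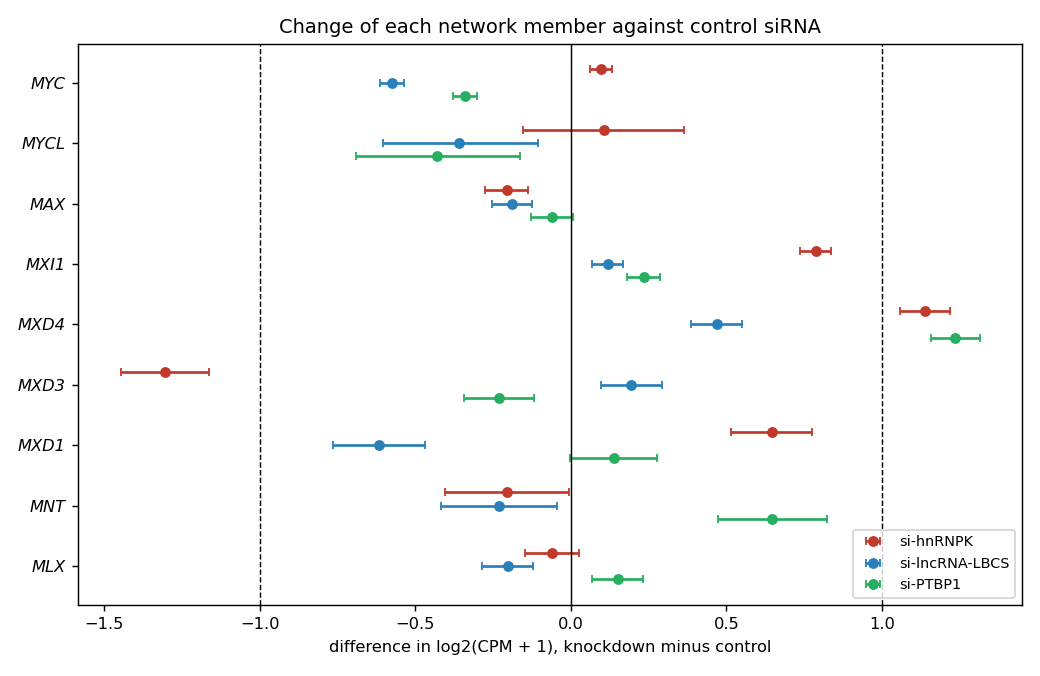
Difference in log2(CPM + 1) from the control siRNA library (horizontal axis) for each of the 9 genes (vertical axis) in the 3 knockdown libraries. Points are single libraries, bars the 95% counting interval, and dashed lines mark 2-fold. MXD4 was past the line with si-hnRNPK (1.14) and si-PTBP1 (1.24), and MXD3 with si-hnRNPK (-1.30).

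Levels of different genes were compared per kilobase of annotated exon. In the control, MYC was at 70.1 CPM per kb, MXI1 at 19.5, MAX at 13.6, MLX at 8.57, MXD3 at 4.32, MXD4 at 4.21, MXD1 at 1.86, MNT at 0.633 and MYCL at 0.344. MYC, MXI1 and MAX were the first, the second and the third in all 4 libraries, and MNT and MYCL were the lowest. MXD4 was below MLX in the control and above it in the si-hnRNPK and si-PTBP1 libraries (9.45 against 8.21, and 10.1 against 9.54 CPM per kb), while MXD3 went below MXD1 in the si-hnRNPK library (1.63 against 3.0 CPM per kb). That last crossing depends on the length used, since per kilobase of the longest transcript MXD3 stayed above MXD1 there (3.69 against 3.41).

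The MYC-type members and the repressing members were then summed per kilobase, since they compete for MAX. The sum of MYC and MYCL was 70.4 CPM per kb in the control, 75.4 with si-hnRNPK, 47.1 in the si-lncRNA-LBCS-labelled library and 55.5 with si-PTBP1. The sum of MXD1, MXD3, MXD4, MXI1 and MNT was 30.5, 48.4, 33.7 and 39.9 CPM per kb in the same order. Their ratio was 2.31 (2.25 to 2.37) in the control, 1.56 (1.52 to 1.6) with si-hnRNPK, 1.40 (1.36 to 1.44) in the si-lncRNA-LBCS-labelled library and 1.39 (1.35 to 1.43) with si-PTBP1. All 3 knockdown libraries had a lower ratio than the control, by different sums: with si-hnRNPK the repressing sum was 1.59 times the control and the MYC sum 1.07 times, in the si-lncRNA-LBCS-labelled library they were 1.10 and 0.669 times, and with si-PTBP1 1.31 and 0.788 times. The ratio is taken within a library, so the scale of the libraries does not enter it. MXI1 made up 57.6% to 69.8% of the repressing sum. These are sums of mRNA, and protein was not measured here.

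**Figure D3:**
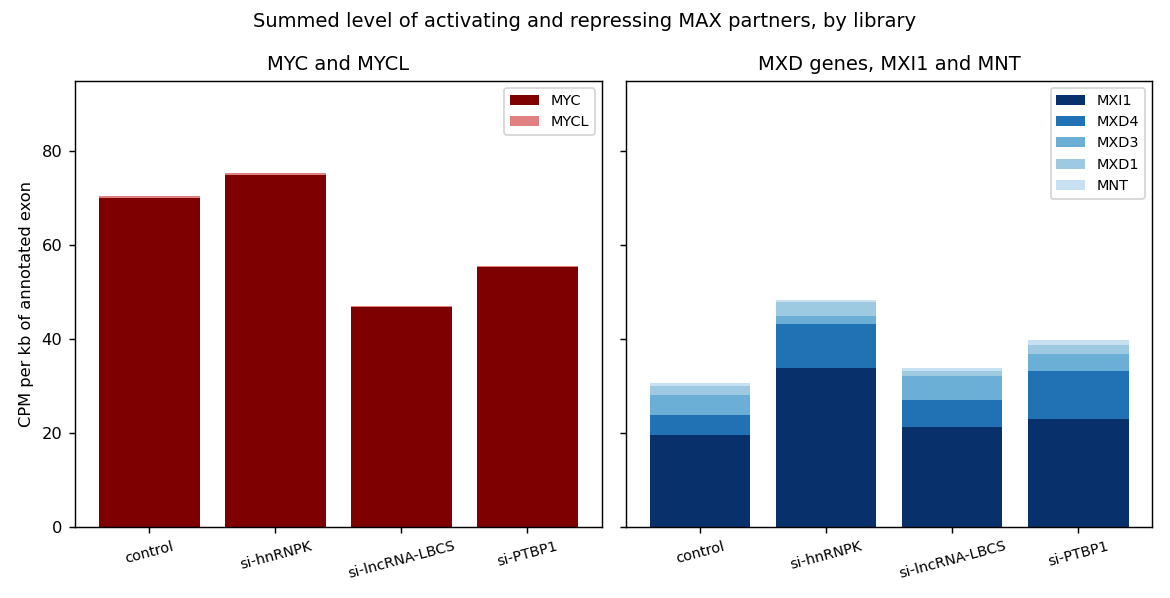
Summed level in CPM per kb of annotated exon (vertical axis, from 0) of MYC and MYCL (left) and of the 5 repressing partners (right) in the 4 libraries, 1 library each. The left sum was lowest in the si-lncRNA-LBCS-labelled library (47.1), and the right sum was highest with si-hnRNPK (48.4).

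MXD4 and MXD3, the members with the largest rise and the largest fall in the si-hnRNPK library, are shown by their RefSeq promoters (GRCh38.p14), which run from 250 bases before to 50 bases after the start of the gene. Capitals mark the E-box CACGTG, the sequence bound by MYC-MAX and MXD-MAX pairs, which reads the same on both strands. MXD4 lies at chr4:2262060-2262359 on the minus strand and MXD3 at chr5:177312703-177313002 on the minus strand.
MXD4: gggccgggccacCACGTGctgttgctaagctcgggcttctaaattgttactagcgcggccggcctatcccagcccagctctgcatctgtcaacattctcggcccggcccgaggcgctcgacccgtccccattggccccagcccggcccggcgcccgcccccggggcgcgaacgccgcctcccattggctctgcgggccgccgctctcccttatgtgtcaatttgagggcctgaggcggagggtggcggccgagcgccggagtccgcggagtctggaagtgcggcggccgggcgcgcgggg
MXD3: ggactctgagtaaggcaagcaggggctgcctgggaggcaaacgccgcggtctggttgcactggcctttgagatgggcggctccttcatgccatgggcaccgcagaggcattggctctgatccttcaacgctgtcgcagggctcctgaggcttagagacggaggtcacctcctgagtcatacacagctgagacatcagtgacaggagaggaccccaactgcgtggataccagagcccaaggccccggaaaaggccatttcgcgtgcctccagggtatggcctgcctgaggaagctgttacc
The E-box of MXD4 starts at base 13 of its window, and the MXD3 window holds none. The 9 network genes with a promoter in the RefSeq set used here include MYCN but not MYC, so the MYC promoter was not searched. They have 12 promoters there, and the shares of all promoters are counted per promoter, not per gene. Of these 9 genes, MLX, MNT and MXD4 held an E-box, and 7.26% of all 35116 promoters did. The CT element CCCTCCCC, or GGGGAGGG on the other strand, the kind of sequence hnRNPK is known to bind, was in promoters of MAX, MLX, MXI1 and MYCN, and in 13.6% of all promoters. A match is a description of these letters and no evidence of binding.

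An siRNA can also lower mRNAs whose 3' UTR pairs with its seed, bases 2 to 8 of the guide strand. The siRNAs are shown as the labels give them, as the sense strand with 2 overhanging bases, and capitals mark the bases that a seed match shares. Only the siRNAs with a match in MXD1, MXD4 or MNT are shown.
si-lncRNA-LBCS siRNA 2: ggugguagucaACACAAAutt
si-hnRNPK siRNA 2: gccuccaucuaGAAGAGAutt
si-PTBP1 siRNA 2: cccucauugacCUGCACAatt
The matching stretches of the longest annotated 3' UTRs follow, with the match in capitals.
MXD1, si-lncRNA-LBCS siRNA 2: aggggcaggtgACACAAAggatttttttt
MXD1, si-hnRNPK siRNA 2: attgaatggctGAAGAGAttgagtatttg
MXD4, si-PTBP1 siRNA 2, first: gtcctgcctgtCTGCACAggagaggggct
MXD4, si-PTBP1 siRNA 2, second: ctccccactgcCTGCACAgaggaccctga
MNT, si-PTBP1 siRNA 2: ggcccccgggcCTGCACAgatacctcatc
MXD4 and MNT carried matches to an siRNA of the library in which they were highest, with changes of 1.24 and 0.65. MXD1 carried 1 match to each of 2 libraries, and its change was -0.62 in the si-lncRNA-LBCS-labelled library and 0.65 with si-hnRNPK. Matches were common: 24.0% of genes with a 3' UTR held one to either siRNA of the si-lncRNA-LBCS-labelled library, 27.1% for si-hnRNPK and 25.1% for si-PTBP1. Genes with a match had a median change of -0.06, -0.18 and 0.08 in these libraries, against 0.00, -0.07 and 0.14 without one. The other matches were in MYCL, MXD3 and MXI1 for the si-lncRNA-LBCS-labelled library, with changes of -0.36, 0.19 and 0.12, in MLX for si-hnRNPK (-0.06) and in MXD3 for si-PTBP1 (-0.23). MYC held 1 match in its 3' UTR, to siRNA 1 of the si-PTBP1 library, in which its change was -0.34. In their longest transcripts, but not in the 3' UTRs searched, MYC and MYCL each held 1 further match. That of MYC was to siRNA 2 of the si-lncRNA-LBCS-labelled library (change -0.58), and that of MYCL to siRNA 2 of si-hnRNPK (0.11). The part of seed matches in the members' changes was not tested.

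The median change of known targets of MYC in ribosome synthesis was slightly below 0 in all 3 knockdown libraries. Shares of all genes tested that were lower, to set beside the counts of each list, were 58.4% with si-hnRNPK, 51.8% in the si-lncRNA-LBCS-labelled library and 36.5% with si-PTBP1. Of 27 such genes tested, 18 were lower with si-hnRNPK (median change -0.23, all genes -0.11), 23 in the si-lncRNA-LBCS-labelled library (median -0.25, all genes -0.01) and 24 with si-PTBP1 (median -0.24, all genes 0.12). The si-hnRNPK count is not far above the 58.4% of all genes that were lower there. With median-of-ratios scaling the list medians were -0.12, -0.24 and -0.37 in the same order. None of the 27 passed 2-fold in any of the 3 comparisons. NCL, the nucleolar protein nucleolin, was at 277 CPM in the control, 142 CPM with si-hnRNPK, 164 CPM in the si-lncRNA-LBCS-labelled library and 209 CPM with si-PTBP1. NIP7, a 60S assembly factor, was higher with si-hnRNPK (change 0.58) and lower in the others (-0.28 and -0.12).

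Targets in metabolism and growth were spread on both sides of 0. Of 29 genes, 17 were lower with si-hnRNPK (median -0.13), 17 in the si-lncRNA-LBCS-labelled library (median -0.01) and 22 with si-PTBP1 (median -0.16). The si-hnRNPK count is near the 58.4% of all genes that were lower there, and the si-PTBP1 count is above the 36.5%. LDHA, lactate dehydrogenase A, was at 1739 CPM in the control and 863 CPM with si-hnRNPK, a change of -1.01 that was -0.90 and so under 2-fold with median-of-ratios scaling. SHMT2, the mitochondrial serine hydroxymethyltransferase, fell from 211 CPM to 99.1 CPM with si-PTBP1 (change -1.08). TFRC, the transferrin receptor, was at 310 CPM in the control and 559 CPM with si-hnRNPK (change 0.85), against a change of -0.49 with si-PTBP1.

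Cell cycle targets were lower with si-hnRNPK, the library in which MYC mRNA was not lower. There 15 of 17 were lower, against 58.4% of all genes, 11 of them by 1.5-fold, against 15.8% of all genes, and the median change was -0.67 (all genes -0.11). The genes that fell were CCND1 (cyclin D1), from 1187 CPM to 295 CPM (change -2.0), MCM4, a subunit of the replicative helicase, from 436 CPM to 137 CPM (-1.67), and E2F2, from 44.0 CPM to 18.2 CPM (-1.22). In the si-lncRNA-LBCS-labelled library 12 of 17 were lower, against 51.8% of all genes (median -0.07, all genes -0.01). With si-PTBP1 11 of 17 were lower, against 36.5% of all genes (median -0.09, all genes 0.12). The si-PTBP1 median was -0.21 with median-of-ratios scaling. No gene of the list passed 2-fold in these libraries. The 5 proliferation markers, all lower with si-hnRNPK, had a median change of -0.42 with si-PTBP1.

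Genes known to be repressed by MYC were mostly higher with si-hnRNPK and si-PTBP1, by 7 of 9 (median 0.46) and 8 of 9 (median 0.30). Of all genes, 41.6% were higher with si-hnRNPK and 63.5% with si-PTBP1, where the list median was 0.18 after median-of-ratios scaling. NDRG1, a stress-induced growth inhibitor, rose from 404 CPM to 896 CPM with si-hnRNPK (change 1.15), and CLU (clusterin) from 145 CPM to 293 CPM (1.01). CLU was at 282 CPM with si-PTBP1 (0.96), where CDKN1C, the inhibitor p57, rose from 2.79 CPM to 7.35 CPM (1.14). In the si-lncRNA-LBCS-labelled library the median was 0.05 over 9 genes, and GADD45A, a growth arrest gene, fell from 48.5 CPM to 20.8 CPM (-1.19). CDKN1A, which encodes the inhibitor p21, was at 116 CPM in the control, 103 CPM with si-hnRNPK, 80.8 CPM in the si-lncRNA-LBCS-labelled library and 169 CPM with si-PTBP1.

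**Figure D4:**
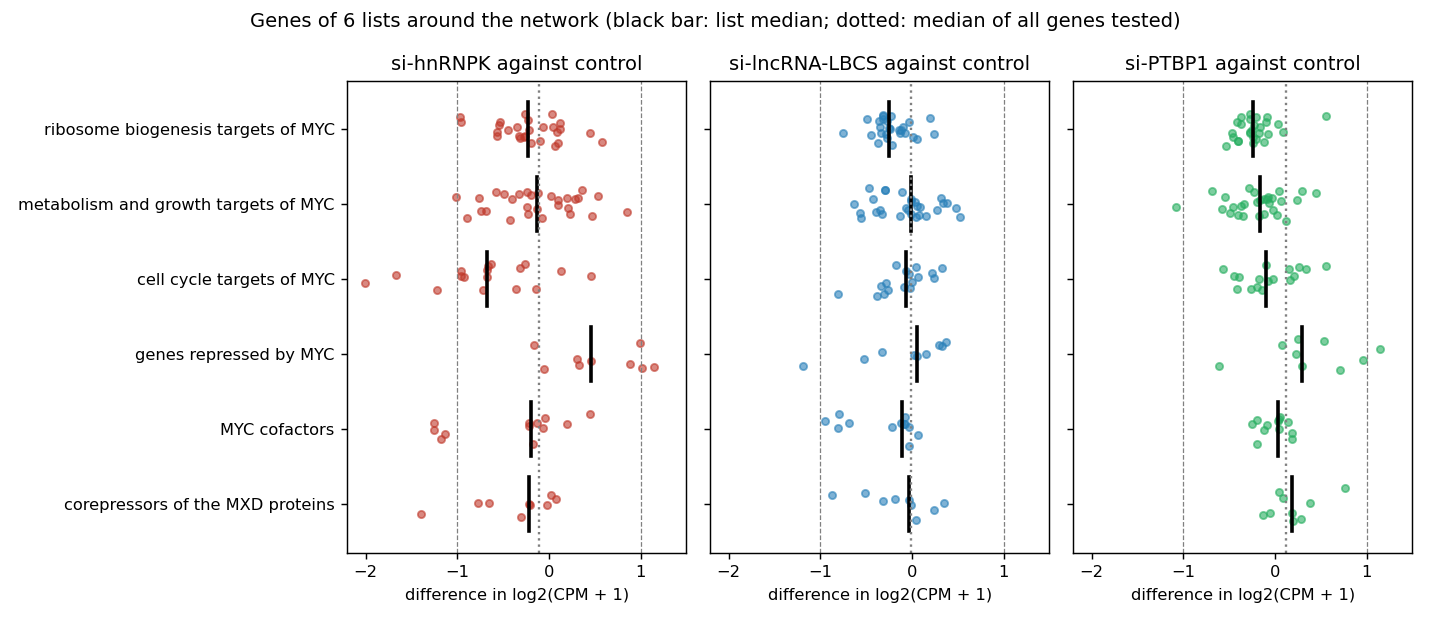
Differences in log2(CPM + 1) from control (horizontal axis) of single genes in 6 lists (vertical axis), 1 panel per knockdown library. Black bars are list medians, the dotted line is the median of all genes tested, and dashed lines mark 2-fold. The cell cycle list was low with si-hnRNPK (median -0.67), and 4 of the 12 MYC cofactors lay beyond -1 there, against 3.93% of all genes tested.

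The cofactors through which MYC and MXD proteins act were also measured. Of 12 MYC cofactors, 4 fell with si-hnRNPK, against 3.93% of all genes tested. Among them were EP400, a chromatin remodeller (59.5 to 24.4 CPM, change -1.25), HCFC1 (108 to 47.3 CPM, -1.18) and TRRAP, the scaffold of histone acetyltransferase complexes (140 to 63.0 CPM, -1.14). In the si-lncRNA-LBCS-labelled library the changes of EP400, HCFC1 and TRRAP were -0.95, -0.69 and -0.80, and with si-PTBP1 0.03, -0.20 and -0.20. The 5 cofactors whose longest transcript is at least 6.064 kb had a median change of -1.18 with si-hnRNPK, and the other 7 had -0.13. Protein-coding genes with such a transcript had a median of -0.19, against -0.05 where the longest transcript is at most 2.211 kb, and the part of length was not tested further.

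Among 9 corepressor genes of the MXD proteins, 7 were lower with si-hnRNPK (median -0.22), 6 in the si-lncRNA-LBCS-labelled library (median -0.04) and 2 with si-PTBP1 (median 0.19). SIN3A, the scaffold bound by MXD proteins, was at 47.9 CPM in the control, with changes of -0.66, -0.52 and -0.06 in the same order.

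Genes known to set the level of MYC itself were counted in the same way. In protein turnover, 8 of 14 were lower with si-hnRNPK (median -0.29), a share near that of all genes. By 2-fold, 3 of 14 fell, against 3.93% of all genes tested. They were AURKA (191 to 74.4 CPM, change -1.35) and CIP2A (179 to 71.2 CPM, -1.31), which protect the MYC-family proteins from degradation, and USP28, a deubiquitinase of MYC (82.1 to 39.4 CPM, -1.04, and -0.93 with median-of-ratios scaling, under 2-fold). FBXW7, the ubiquitin ligase subunit that marks MYC for degradation, was at 30.6 CPM in the control and 45.1 CPM with si-PTBP1 (change 0.55). Of 19 factors of the MYC promoter or mRNA, 14 were lower with si-hnRNPK (median -0.41, all genes -0.11). The siRNA target HNRNPK is in this list and is counted among the 14. Besides HNRNPK itself, HNRNPD, an AU-rich element binding protein, fell (59.1 to 22.6 CPM, -1.35) and STAT3 rose (83.4 to 192 CPM, 1.20). Of all genes tested there, 3.93% fell and 3.55% rose. The promoter-binding proteins FUBP1 and CNBP had changes between -0.10 and 0.12 in the 3 comparisons. The medians of these lists were -0.07 and -0.10 in the si-lncRNA-LBCS-labelled library, and 0.04 and -0.08 with si-PTBP1, where PTBP1 itself was the only one of both lists to fall.

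The genes nearest to MYC in their 3 changes from control, among 8207 genes with 10 CPM or more in all 4 libraries, were FGD6, EPG5, TPMT, PAIP2 and USP10. Their distances from MYC, as the Euclidean distance over 3 knockdown libraries on the log2(CPM + 1) scale, were between 0.106 and 0.135. FGD6 had changes of 0.20 with si-hnRNPK, -0.57 in the si-lncRNA-LBCS-labelled library and -0.32 with si-PTBP1. With 3 values per gene, such a likeness is a description of these libraries.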

How the data were processed

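RNA of UM-UC-3 cells was measured in 4 libraries, grouped by the labelled siRNA. Each library has a table, deposited by the authors, that lists CPM by Ensembl identifier, and per the labels the genome build was hg19. The aligner, the counting method and its use of strand are not given in the sources used here. The deposited CPM were whole multiples of 1 read (within 0.01 read) for 100% of genes with reads, which gave the reads behind each value. Here 3 reads equal 0.0427 to 0.0552 CPM.

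Changes were differences in log2(CPM + 1) for genes at 1 CPM or more in either library. No test of the conditions was made, with 1 library each. Alternatives were a pseudocount of 0.1 CPM, median-of-ratios scaling over 12362 genes, no filter or 5 CPM, a 1.5-fold threshold, an exact binomial test of reads (which compares 2 libraries, not the conditions), and as reference the geometric mean of the 3 remaining libraries. Symbols, exon lengths and 3' UTRs were from GENCODE release 29 (GRCh38), matched by identifier, and promoters from RefSeq. The functions were tested on simulated data. Python 3.11.15, numpy 2.4.6, pandas 2.3.3 and scipy 1.17.1 were used.

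The members and gene lists were chosen with earlier results of these data known. The rule for named genes was the members, the siRNA targets, up to 3 genes of each list with the largest rise and the largest fall per comparison at 10 CPM or more, and the 5 genes nearest to MYC. PVT1, overlapping genes and other list genes given for their role, such as NCL, NIP7, CDKN1A, FUBP1 and CNBP, were added as context where the rule did not name them in that comparison. Some list genes are not reported here by name.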

Additional observations from a re-analysis of the deposited data

How the results depend on the processing

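The change of MYC kept its sign under every alternative run. It was 0.21 (median-of-ratios scaling) and 0.40 (geometric mean as reference) for si-hnRNPK, -0.49 (geometric mean) for the si-lncRNA-LBCS-labelled library, and -0.47 (median-of-ratios scaling) and -0.18 (geometric mean) for si-PTBP1. With the geometric mean as reference, 0 members rose with si-hnRNPK and 0 with si-PTBP1, since MXD4 was high in both. At 1.5-fold, 3 members were higher with si-hnRNPK, 2 with si-PTBP1, and 1 was lower in the si-lncRNA-LBCS-labelled library. This reference also turned the sign of 5 member changes under 2-fold: MXD4 (-0.32) and MXI1 (-0.22) in the si-lncRNA-LBCS-labelled library, and MXI1 (-0.07), MAX (0.07) and MXD3 (0.15) with si-PTBP1. The ratio of the MYC sum to the repressing sum was 1.95 in the control, 1.39 with si-hnRNPK, 1.16 in the si-lncRNA-LBCS-labelled library and 1.18 with si-PTBP1 over the longest transcript, and 1.33, 0.892, 0.803 and 0.764 without division by length. The control was highest under each, but these alternatives use the same reads and the same control library. Of 59 alternative values for the MYC change, the member counts and the ratio of sums, 41 stayed within counting error or 1.5 times the count and 18 moved. Of 742 further values for single genes, lists and seed matches, 651 stayed so and 91 moved. No paired analysis was possible because each condition had 1 library. Counting error was widest for MYCL, with 58 to 107 reads, and the spread between cultures is unknown.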
